A study of Mus musculus with 7 samples.

Results

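The interferon gamma response genes described here are 34 mouse genes, chosen by name as the guanylate-binding proteins, the immunity-related GTPases and other genes of the interferon gamma pathway, out of 21892 gene symbols in the deposited table. The choice was made with earlier results of these data known, so the list is not independent of them. All 34 had a row. 33 of them had a mean of at least 1 TPM (an abundance per transcript length and library total) over the 7 libraries, and Ido1 did not. Tumors with an exon 19 deletion of Egfr, kept by passage in C57BL/6J mice, were grown under the skin (strain label C57BL/6), and RNA of the frozen tissue was sequenced after removal of ribosomal RNA. The labels give 1 library per group, so there is no spread between replicates and every difference below is one between 2 libraries, with no test.

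Gefitinib, an inhibitor of the EGFR kinase, had been given for 3 days in one group and for 14 days in another. 4 groups were sampled at day 21, each after a 14-day gefitinib course with 7 further days on DC101, 4H2, both antibodies or vehicle. The remaining group was sampled at day 3 on vehicle without gefitinib. DC101 is an antibody against VEGFR2 and 4H2 one against PD-1, the receptors in the series title. The titles call both control groups vehicle, whereas their treatment labels say that none was given. The sources used here do not state the number of animals per library. Sequencing depth cannot be read from TPM and is unknown.

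Interferon gamma is made mainly by T cells and natural killer cells. It binds a receptor of IFNGR1 and IFNGR2 chains, the attached kinases JAK1 and JAK2 pass the signal on, and promoters of target genes carry GAS elements. One of the first targets is IRF1, which with related factors binds ISRE elements and extends the response. In mice the most strongly induced genes are large families of GTPases that attack the membranes around intracellular pathogens, and in tumors the same response raises antigen presentation, PD-L1 and the enzyme IDO1.

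The day 21 libraries differ in cell content, which touches all antibody comparisons. 8 epithelial markers summed to 4182 TPM with DC101, 40.2 with 4H2 and 325 with both antibodies, against 6405 TPM in the day 21 vehicle library. 12 skeletal muscle genes summed to 16214, 75982 and 74515 TPM in the same antibody libraries, against 2918 TPM with vehicle. 6 alveolar type 2 genes summed to 16072, 184 and 768 TPM in the DC101, 4H2 and combination libraries, against 13397 TPM with vehicle. The 4H2 and combination libraries are labelled lung tumor but held little epithelial RNA. In bulk RNA, fewer cells of a type and less RNA per cell cannot be told apart.

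Ifng itself, the cytokine gene, was listed at 0 TPM with vehicle at day 3 and stood at 4.3 and 14.4 TPM after 3 and 14 days of gefitinib. At day 21 it was at 4.1 TPM with DC101, 14.5 with 4H2 and 6 with both antibodies, against 10.1 with vehicle. The median of the 33 members on the log2(TPM + 1) scale was 3.77 with vehicle at day 3 and 6.64 and 7.25 after 3 and 14 days of gefitinib. The corresponding levels at day 21 were 6.38 with DC101, 6.82 with 4H2 and 6.59 with both antibodies, against 6.53 with vehicle. The day 3 vehicle library was lowest for both Ifng and the member median. Day 14 of gefitinib and 4H2 held the highest values of both. The combination library had a member median above that of the day 21 vehicle library with less Ifng.

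Over the 7 libraries the members spanned a wide range of levels. The median log2(TPM + 1) of a member across libraries was highest for the proteasome activator gene Psme1 (9.08), followed by Gbp2 (8.55), Igtp (8.36) and Iigp1 (8.22), and lowest for Ido1 (0.49), Gbp10 (3.41) and Il12rb1 (3.81). Ifng had a median level of 2.81 on that scale. 31 of 33 members were lowest in the day 3 vehicle library, against 31.6% of all 13997 genes compared, and 22 of 33 were highest at day 14 of gefitinib, against 18.8% of all genes. The exceptions at the low end were Socs1 and Wars, both lowest with both antibodies. The distance between a member's lowest and highest library ran from 0.83 for Psme1 to 6.27 for Gbp2b on the log2 scale.

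**Figure D1:**
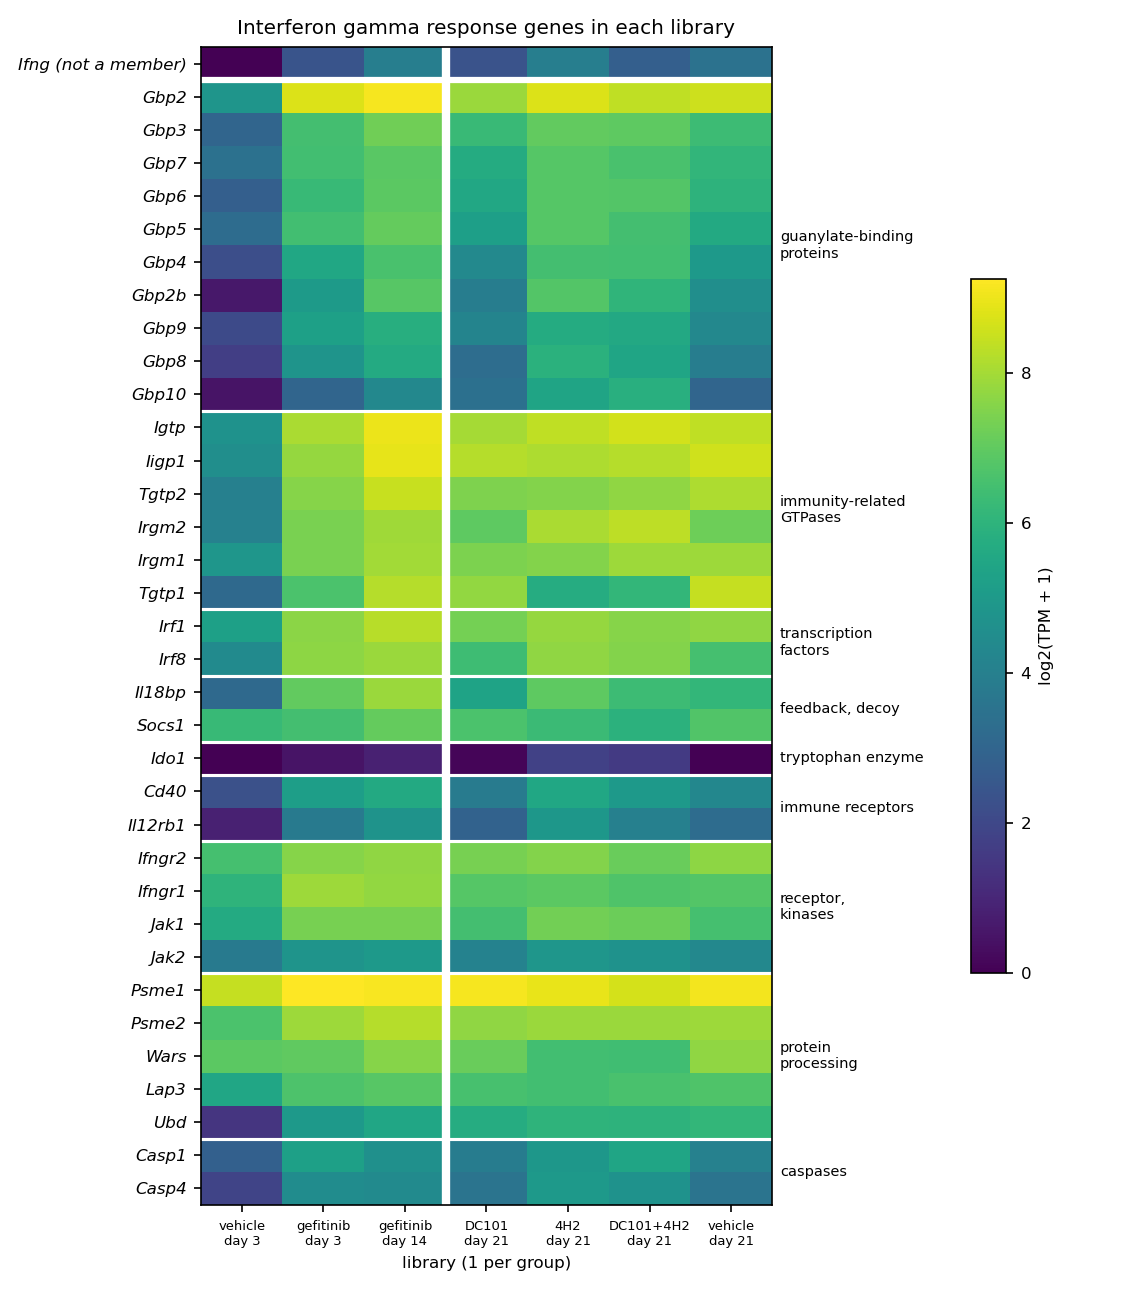
Heat map of log2(TPM + 1) for Ifng and the 34 members (rows, grouped by role) in the 7 libraries (columns, 1 per group). The day 3 vehicle column is the darkest for 31 of 33 members, and Ido1 stays at or below 2.5 TPM in every library.

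The guanylate-binding proteins are interferon-induced GTPases that coat pathogen vacuoles and bacteria and help to open them. 5 of their genes lie in a cluster on chromosome 3 (142496934 to 142638008, GRCm38.p6) and the other 5 in a cluster on chromosome 5 (105012513 to 105295871). Gbp2, the most abundant, stood at 27.5 TPM with vehicle at day 3 and at 437.8 and 564.8 TPM after 3 and 14 days of gefitinib. At day 21 Gbp2 was at 230.8 TPM with DC101, 432.6 with 4H2 and 334 with both antibodies, against 372.9 with vehicle. Every library after gefitinib lay above the one without it for this gene, and DC101 was the lowest of them.

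Gbp2b, next to Gbp2 and the member with the widest range, was at 0.5 TPM with vehicle at day 3 and at 31.7 and 114.7 TPM after 3 and 14 days of gefitinib. At day 21 it was at 14.2 TPM with DC101, 108 with 4H2 and 65.7 with both antibodies, against 22.6 with vehicle. Gbp10, at the low end of the family, was at 0.4, 7.2 and 18.8 TPM with vehicle at day 3 and after 3 and 14 days of gefitinib. It was at 9.6 TPM with DC101, 41.3 with 4H2 and 56 with both antibodies, against 7.1 with vehicle at day 21, so that its highest library was not day 14 of gefitinib.

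The immunity-related GTPases are smaller interferon-induced GTPases of the mouse. Irgm1, Irgm2 and Igtp are regulators that sit on the cell's own membranes, whereas Iigp1 and the Tgtp proteins load onto the vacuoles of parasites. Igtp, the most abundant, was at 25.3 TPM with vehicle at day 3 and at 268.8 and 507.7 TPM after 3 and 14 days of gefitinib. At day 21 it was at 255.1 TPM with DC101, 331.4 with 4H2 and 398 with both antibodies, against 327 with vehicle. Unlike Igtp, Tgtp1 was highest in the day 21 vehicle library. It was at 7.9 TPM with vehicle at day 3, at 98.6 and 301.7 TPM after 3 and 14 days of gefitinib, and at day 21 at 217.1 TPM with DC101, 52.2 with 4H2 and 68.6 with both antibodies, against 350.6 with vehicle. Igtp and Irgm2 are neighbours on chromosome 11 (58199556 to 58222783), and Tgtp1 and Tgtp2 lie together on the same chromosome (48985329 to 49064212).

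Promoter windows in RefSeq (GRCm38.p6), 250 bases before to 50 after the gene start, were found for 24 of the 34 members, 10 of them GTPase genes. They were searched for the ISRE core, GAAA followed by any 2 bases and GAAA, on both strands and for the GAS core TTCNNNGAA, which reads the same on both strands. All 10 GTPase genes with a window held an ISRE core, as did 2 of the other 14 members, Socs1 and Psme1, and 3.99% of all 27025 genes in the promoter table. A GAS core was in 6 of the 10 GTPase windows and in 2 of the other 14, Irf1 and Irf8, against 9.55% of all genes. No GAS core overlapped an ISRE core in a member. These are letter matches and not shown binding sites.

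4 immunity-related GTPases carried both motifs in one fixed arrangement, with the first base of the GAS core 11 bases before the first base of the ISRE core. They are shown because the arrangement was noticed in these sequences, and GAS and ISRE cores are in capitals with 20 bases on each side, 5′ to 3′ on the gene's strand.
Tgtp1: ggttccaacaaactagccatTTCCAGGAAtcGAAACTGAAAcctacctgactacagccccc
Tgtp2: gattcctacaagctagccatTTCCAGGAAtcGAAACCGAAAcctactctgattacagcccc
Igtp: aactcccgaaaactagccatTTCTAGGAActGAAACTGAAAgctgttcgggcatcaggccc
Irgm2: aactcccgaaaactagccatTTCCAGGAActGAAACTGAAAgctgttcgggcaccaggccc
The Tgtp1 stretch is chr11:48992294-48992354 and the Tgtp2 stretch chr11:49064253-49064313, both on the minus strand. Igtp is shown at chr11:58199491-58199551 and Irgm2 at chr11:58214882-58214942, both on the plus strand. The same spacing was found in 5 of 27025 genes with a window, these 4 and the predicted gene Gm12185. The GTPase genes share ancestry, so their promoters are not independent examples.

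In the guanylate-binding proteins of chromosome 3 the ISRE core stood without this arrangement. It is shown for Gbp2, as the most abundant, over the 250 bases before the gene start (chr3:142620413-142620662, plus strand). Gbp2b (chr3:142594690-142594739) follows, as the gene with the largest log2(TPM + 1) difference after gefitinib, and Gbp3 (chr3:142559979-142560034), where 2 overlapping matches form 1 run. Irgm1 (chr11:48871421-48871470, minus strand) is the immunity-related GTPase whose window held no GAS core, shown up to its gene start. Gbp2b and Gbp3 are on the plus strand, and capitals mark ISRE cores in all 4.
Gbp2: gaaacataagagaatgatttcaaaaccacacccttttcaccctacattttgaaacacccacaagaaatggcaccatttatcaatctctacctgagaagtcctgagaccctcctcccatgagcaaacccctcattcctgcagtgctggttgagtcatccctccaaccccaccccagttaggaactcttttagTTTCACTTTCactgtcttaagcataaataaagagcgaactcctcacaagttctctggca
Gbp2b: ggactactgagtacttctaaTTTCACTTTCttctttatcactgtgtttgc
Gbp3: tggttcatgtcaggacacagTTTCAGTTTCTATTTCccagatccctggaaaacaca
Irgm1: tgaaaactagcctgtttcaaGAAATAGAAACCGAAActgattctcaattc

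Irf1, the transcription factor gene at the head of the response, had a GAS core and no ISRE core in its window. Its 250 bases before the gene start (chr11:53769764-53770013, plus strand) are shown with the GAS core in capitals.
Irf1: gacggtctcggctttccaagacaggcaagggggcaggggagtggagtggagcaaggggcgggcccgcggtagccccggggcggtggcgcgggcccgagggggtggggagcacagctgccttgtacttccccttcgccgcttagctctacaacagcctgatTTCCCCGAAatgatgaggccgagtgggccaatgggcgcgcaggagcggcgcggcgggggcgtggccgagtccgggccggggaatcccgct

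**Figure D2:**
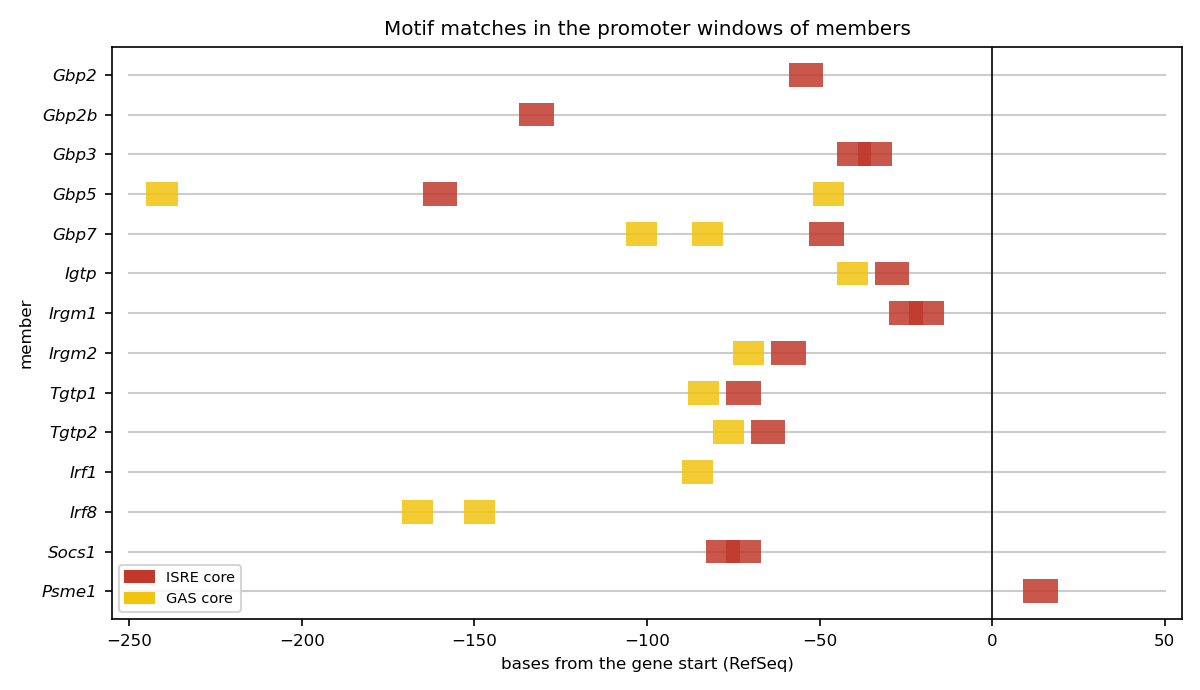
Positions of ISRE cores (red) and GAS cores (yellow) in the promoter windows of the 14 members with a match; the horizontal axis is the distance in bases from the RefSeq gene start. In Igtp, Irgm2, Tgtp1 and Tgtp2 a GAS core stands 11 bases before an ISRE core, the first bases lying between 88 and 34 bases before the gene start.

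With 3 days of gefitinib, 30 of the 33 members were at least 2-fold above vehicle on the log2(TPM + 1) scale and none below it, where 20.8% of all genes compared were higher and 14.4% lower. The member median was 2.98 and that of all genes -0.09. All 10 guanylate-binding proteins (median 3.24) and all 6 immunity-related GTPases (3.35) were among the 30. Gbp2b, a guanylate-binding protein gene next to Gbp2, was at 31.7 against 0.5 TPM, and its log2 difference of 4.45 was the greatest with a pseudocount of 1. This difference of a low gene was 5.73 with a pseudocount of 0.1 and 2.74 with one of 5, where Gbp2 had the greatest (3.77). Members with an ISRE core in their window had a median of 3.35 (12 members, from 0.28 for Socs1 to 4.45), and the 12 without had a median of 2.13 (from 1.01 to 3.87). 10 of the 12 with a core are GTPase genes, so motif and family cannot be told apart. The order was not the same in every comparison: with 4H2 against vehicle at day 21 the medians were 0.12 with a core and 0.34 without, and for vehicle at day 21 against day 14 of gefitinib they were -0.62 and -0.64.

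The members that did not reach 2-fold after 3 days were Socs1, Wars and Psme1. Socs1, the inhibitor of JAK kinases that limits the response, was at 89.5 TPM after 3 days of gefitinib against 73.7 TPM with vehicle. Wars, the tryptophanyl-tRNA synthetase gene, was at 126 against 120.8 TPM, and Psme1 at 610.8 against 342.9 TPM. Their vehicle levels lay above the 0.4 to 27.5 TPM of the guanylate-binding proteins, as did those of Psme2 (99.4 TPM) and Ifngr2 (91.9 TPM), which reached 2-fold.

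At day 14 of gefitinib the same vehicle library was the comparator, so its values enter both comparisons. Here too 30 of 33 members were at least 2-fold higher and none lower, where 22.7% of all genes were higher and 12.7% lower, with a member median of 3.72 and an all-gene median of 0.03. Gbp2b reached 114.7 against 0.5 TPM (6.27), the greatest difference of any member in any comparison with a pseudocount of 1. With a pseudocount of 5 it was 4.44, below Tgtp1 (4.57). Il18bp, which encodes a secreted decoy for interleukin 18, was at 234.3 against 7.9 TPM (4.72). Since the vehicle library is of day 3, drug and time cannot be told apart.

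The 2 gefitinib libraries set against each other, day 14 minus day 3, differed by 0.56 in the member median and 0.11 in the median of all genes. 5 members were at least 2-fold higher at day 14, and none lower, where 4.93% of all genes were higher and 2.73% lower. All 5 were GTPases. Gbp2b was at 114.7 TPM at day 14 against 31.7 TPM at day 3, Gbp4 at 97.1 against 44.9 and Gbp10 at 18.8 against 7.2, the last under 2-fold (0.96) with a pseudocount of 5. Tgtp1 was at 301.7 against 98.6 TPM and Iigp1 at 479.5 against 222.4 TPM. 4 members were lower by any amount, where 37.0% of all genes were, namely Casp1, Ifngr1, Psme1 and Casp4. Casp1 had the largest of these differences, at 24.3 against 37.7 TPM (-0.61).

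The receptor and kinase genes, which receive the signal, were higher after gefitinib by less than any GTPase. Ifngr2, the signalling chain of the receptor, was at 91.9 TPM with vehicle at day 3 and at 189 and 211 TPM after 3 and 14 days. At day 21 Ifngr2 was at 163.3 TPM with DC101, 183.4 with 4H2 and 139.1 with both antibodies, against 204.8 with vehicle. Ifngr1, the ligand-binding chain, was at 63.9, 240.6 and 216.3 TPM with vehicle at day 3 and after 3 and 14 days of gefitinib. All 4 of these genes, Jak1 and Jak2 included, were at least 2-fold above vehicle at both times, with medians of 1.37 at day 3 and 1.48 at day 14. At day 3 Jak2 (1.01) and Ifngr2 (1.03) lay close to 2-fold. Jak2 was at 0.84 with a pseudocount of 5, and both were under 2-fold (0.93 and 0.95) after rescaling without muscle and the most abundant genes. Also at least 2-fold higher at both times were Psme2 and Lap3, which serve antigen processing, and Ubd, Casp1 and Casp4.

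Irf1, a transcription factor gene induced early in the response, was at 37.7 TPM with vehicle at day 3 and at 198.2 and 308 TPM after 3 and 14 days of gefitinib. At day 21 Irf1 was at 158.8 TPM with DC101, 221.6 with 4H2 and 190 with both antibodies, against 207.8 with vehicle. Its day 21 libraries thus lay within a range narrower than its distance from the day 3 vehicle library. Irf8, a factor of the monocyte, dendritic and B cell lineages, was at 20.7, 205 and 234.6 TPM with vehicle at day 3 and after 3 and 14 days of gefitinib.

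Il18bp, the decoy for interleukin 18, was at 7.9 TPM with vehicle at day 3 and at 129.2 and 234.3 TPM after 3 and 14 days of gefitinib. At day 21 it was at 40.5 TPM with DC101, 122.8 with 4H2 and 80.5 with both antibodies, against 68.4 with vehicle. Psme1, a subunit gene of the PA28 proteasome activator, varied least, at 342.9 TPM with vehicle at day 3, 610.8 and 576.4 TPM after 3 and 14 days of gefitinib, and 556.2 TPM with DC101, 499.5 with 4H2 and 407.3 with both antibodies, against 540.8 with vehicle at day 21. Wars, unlike these genes, was lowest with 4H2 (85.8 TPM) and both antibodies (85.5), with 138.9 under DC101, against 207.5 with vehicle at day 21. In the earlier libraries Wars was at 120.8 TPM with vehicle at day 3 and at 126 and 191.4 TPM after 3 and 14 days of gefitinib.

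Among the genes of immune cells, Cd40, which receives T cell help on antigen-presenting cells, was at 3.9 TPM with vehicle at day 3 and at 35.6 and 48.8 TPM after 3 and 14 days of gefitinib. At day 21 Cd40 was at 13.4 TPM with DC101, 44.2 with 4H2 and 30.7 with both antibodies, against 18.7 with vehicle. Il12rb1, a chain of the interleukin 12 receptor, was at 0.8, 13 and 26.2 TPM with vehicle at day 3 and after 3 and 14 days, and at day 21 at 6.5 TPM with DC101, 28.6 with 4H2 and 15.2 with both antibodies, against 8.7 with vehicle. Both genes ordered the day 21 libraries in the same way, with 4H2 highest and DC101 lowest. Casp1, the inflammasome protease gene, was instead highest with both antibodies. It was at 6.1, 37.7 and 24.3 TPM with vehicle at day 3 and after 3 and 14 days of gefitinib, and at day 21 at 13.8 TPM with DC101, 29 with 4H2 and 42.3 with both antibodies, against 15.9 with vehicle.

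Several leukocyte marker lists were higher in the same comparisons, the B cell list least at day 3. The median of 5 natural killer cell genes was 2.87 at day 3 and 2.51 at day 14 of gefitinib. That of 6 dendritic cell genes was 1.84 and 1.87, and that of 5 B cell genes 0.26 and 2.49. The median difference of 8 pan-leukocyte genes was 2.48 at day 3 and 2.41 at day 14 of gefitinib, that of 10 macrophage genes 3.13 and 3.39, and that of 8 T cell genes 3.10 and 4.66. The median of 6 fibroblast genes was 3.20 and 2.59 and that of 7 endothelial genes 1.78 and 1.43, while 8 epithelial genes were at -1.84 and -1.02 and 12 skeletal muscle genes at 2.89 and 3.67. Their part in the members' differences was not tested. Between the gefitinib libraries, day 14 minus day 3, the pan-leukocyte median was -0.05 and the macrophage median 0.03, while the member median was 0.56 and the T cell median 1.45. In that pair the B cell median was 2.25, the natural killer cell median 0.41 and the dendritic cell median 0.33. The skeletal muscle and epithelial medians were both 0.72, the endothelial median was -0.45 and the fibroblast median -0.95. Their part was not tested here either.

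**Figure D3:**
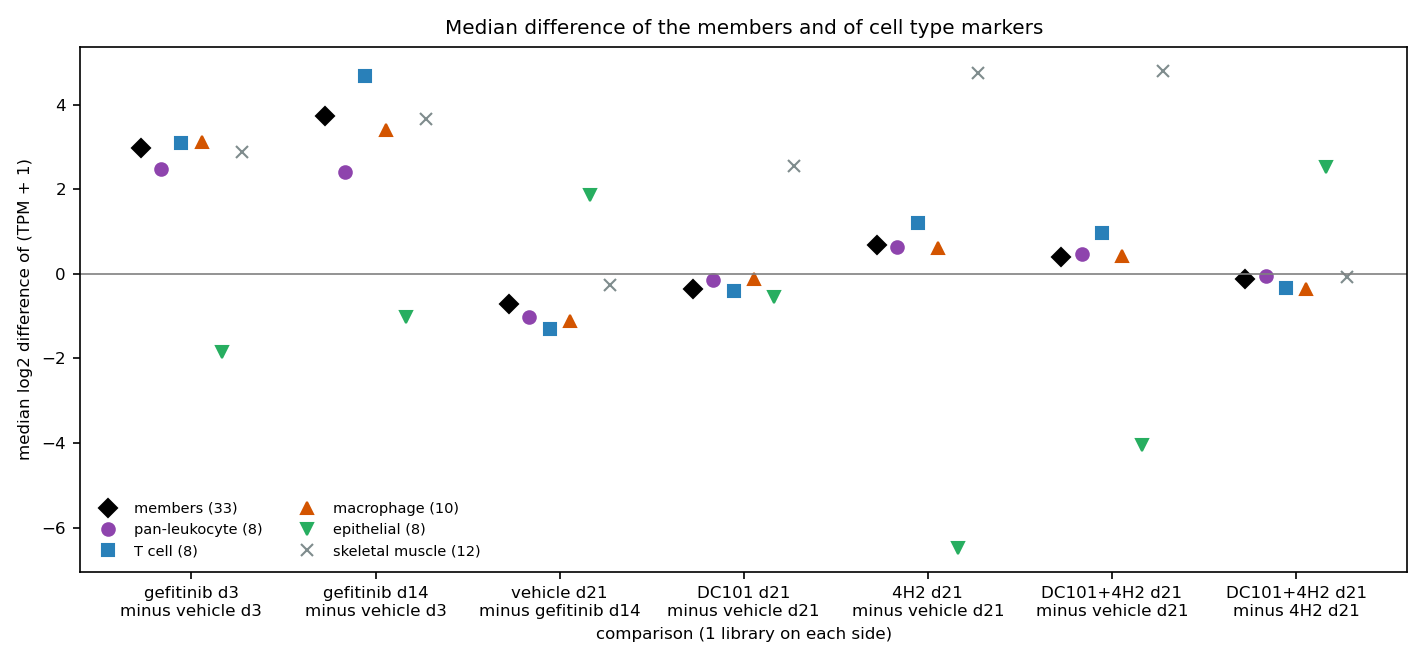
Median log2 difference of (TPM + 1) for the 33 members and for marker lists of 5 tissue components in 7 comparisons, with 1 library on each side of each comparison. The member median has the sign of the pan-leukocyte, T cell and macrophage medians in the 7 comparisons plotted. Day 14 minus day 3 of gefitinib is not plotted. There the member (0.56), T cell (1.45) and macrophage (0.03) medians are positive and the pan-leukocyte median is -0.05. Epithelial genes are at -6.48 with 4H2 against vehicle at day 21.

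7 days after the end of gefitinib, the day 21 vehicle library was lower than day 14 of gefitinib for 30 of 33 members by any amount, where 50.4% of all genes were lower, with a median of -0.72 against -0.01 for all genes. 10 members were lower by 2-fold or more and none higher by that much, where 7.89% of all genes were lower and 7.62% higher. The 10 were Gbp2b, Gbp4, Gbp5, Gbp8, Gbp9, Gbp10, Irf8, Il18bp, Cd40 and Il12rb1. Gbp2b was at 22.6 against 114.7 TPM (-2.29), Il18bp at 68.4 against 234.3 TPM (-1.76) and Gbp8 at 14.2 against 49.2 TPM (-1.72). Drug withdrawal and elapsed time cannot be told apart here.

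The GTPase families differed in size of difference in this comparison. The guanylate-binding proteins had a median of -1.37, with 6 of 10 at least 2-fold lower, and the immunity-related GTPases a median of -0.34, with none of 6. Tgtp1 was higher with vehicle at day 21, at 350.6 against 301.7 TPM, with Irgm1 at 239.6 against 249.9 TPM and Iigp1 at 379.3 against 479.5 TPM. Ubd, which encodes the ubiquitin-like protein FAT10, was at 69.6 against 43.8 TPM (0.66), the largest positive difference of a member. In the same pair the pan-leukocyte median was -1.01, the T cell median -1.31, the macrophage median -1.11 and the epithelial median 1.86. The part of these cells in the result was not tested.

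Compared with vehicle at day 3, the vehicle library of day 21 had 27 of 33 members at least 2-fold higher and none lower, where 15.3% of all genes were higher and 3.11% lower, with a member median of 2.43. The immunity-related GTPases stood at a median of 3.81 and the guanylate-binding proteins at 2.68. Tgtp1 had the largest difference, at 350.6 against 7.9 TPM (5.30), and Ubd followed at 69.6 against 1.7 TPM (4.71). Socs1, Ifngr1, Jak1, Jak2, Psme1 and Wars were under 2-fold. The pan-leukocyte median was 1.42, the T cell median 3.19 and the macrophage median 2.02 in this pair. The skeletal muscle median was 3.41, with 12 of 12 genes at least 2-fold higher, and the fibroblast median 2.01. The part of these tissues was not tested.

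**Figure D4:**
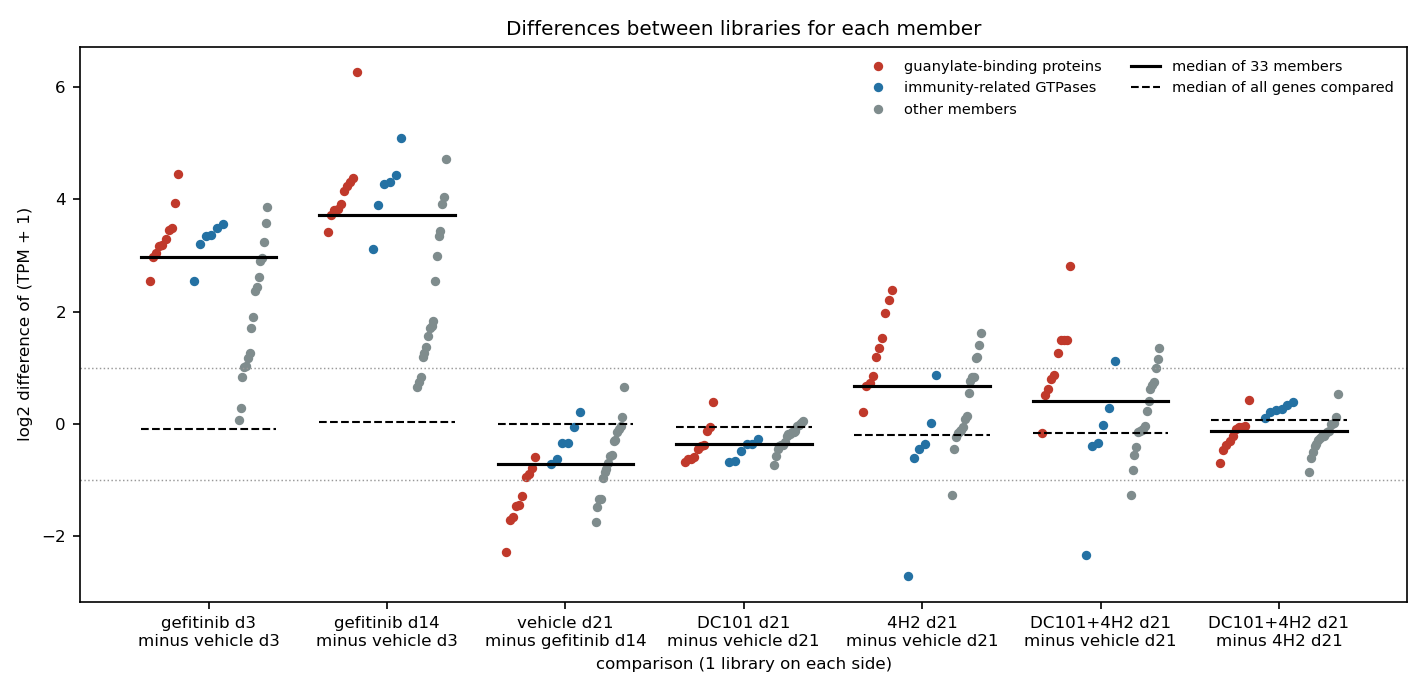
Log2 difference of (TPM + 1) of each of the 33 members (points, by family) in 7 comparisons, with the member median (solid line), the median of 13997 genes (dashed line) and 2-fold (dotted lines). With 4H2 and with both antibodies against vehicle at day 21, guanylate-binding proteins lie mostly above 0 and Tgtp1 at -2.72 and -2.34.

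With DC101, against vehicle at day 21, 30 of 33 members were lower by any amount, where 58.2% of all genes were. Under median-of-ratios scaling, which sets libraries equal in their median gene, the count was 28 of 33, where 51.7% of all genes were lower. None was 2-fold lower or higher, where 1.11% of all genes were lower and 3.12% higher. The member median was -0.36 and that of all genes -0.05. Il18bp showed the largest difference, at 40.5 against 68.4 TPM (-0.74), and Gbp2 was at 230.8 against 372.9 TPM (-0.69). Gbp10, Psme1 and Ifngr1 were the members not lower, with Gbp10 at 9.6 against 7.1 TPM. Ifng was at 4.1 against 10.1 TPM (-1.12). The pan-leukocyte median was -0.14, the T cell median -0.42 and the skeletal muscle median 2.54 beside them. The endothelial median was -0.51, with 6 of 7 genes lower, and the epithelial median -0.54, with 6 of 8 lower. The part of these cells was not tested.

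With 4H2, against the same vehicle library, 10 of 33 members were at least 2-fold higher and 2 lower, where 10.9% of all genes were higher and 20% lower (2797 of 13997). The member median was 0.67 and that of all genes -0.21. All 10 guanylate-binding proteins were higher by some amount (median 1.28, 6 by 2-fold), where 39.9% of all genes were. 4 of 6 immunity-related GTPases were lower by some amount (median -0.41), a share near the 59.2% of all genes. Under median-of-ratios scaling 4 of these 6 were lower with a median of -0.15, where 48.8% of all genes were lower. Gbp10 was at 41.3 against 7.1 TPM (2.38), Gbp2b at 108 against 22.6 TPM (2.21) and Gbp8 at 58.7 against 14.2 TPM (1.97). Tgtp1 went the other way, at 52.2 against 350.6 TPM (-2.72), as did Wars at 85.8 against 207.5 TPM (-1.26).

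Among the other members, Il12rb1 and Cd40 were higher with 4H2, at 28.6 against 8.7 TPM (1.61) and 44.2 against 18.7 TPM (1.20). Casp4, a caspase that senses bacterial lipopolysaccharide, was at 30.5 against 10.9 TPM (1.40), and Irf8 at 208.9 against 91.6 TPM (1.18). All 5 protein processing genes (Psme1, Psme2, Wars, Lap3, Ubd) were lower by some amount, with a median of -0.13, where 59.2% of all genes were lower. Under median-of-ratios scaling 4 of the 5 were higher, with a median of 0.12, where 51.0% of all genes were higher. That scaling moved the median of all genes by 0.23 in this comparison. By 2-fold or more, it gave 15 members higher and 2 lower, with 15.0% of all genes higher and 15.6% lower. The pan-leukocyte median was 0.63, the T cell median 1.19, the epithelial median -6.48 and the muscle median 4.76 in this pair, and their part was not tested.

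With both antibodies, again against vehicle at day 21, 8 of 33 members were at least 2-fold higher and 2 lower, where 11.7% of all genes were higher and 17.0% lower. The member median was 0.41 and that of all genes -0.17. Gbp10 had the largest difference, at 56 against 7.1 TPM (2.81), followed by Gbp8 at 42 against 14.2 TPM, Gbp2b at 65.7 against 22.6 TPM and Gbp4 at 86.6 against 30 TPM. Irgm2 was at 322.4 against 148.6 TPM (1.11), the one immunity-related GTPase at least 2-fold higher, while Tgtp1 was at 68.6 against 350.6 TPM (-2.34). Casp1 was at 42.3 against 15.9 TPM (1.36) and Wars at 85.5 against 207.5 TPM (-1.27). Median-of-ratios scaling moved the median of all genes by 0.22 and turned the immunity-related GTPase median of -0.18 to 0.06. By 2-fold or more, it gave 11 members higher and 2 lower, with 15.2% of all genes higher and 12.6% lower. The pan-leukocyte median was 0.48, the T cell median 0.97, the epithelial median -4.05 and the muscle median 4.80, and their part was not tested.

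Both antibodies against 4H2 alone left no member 2-fold apart, where 4.94% of all genes were higher and 0.464% lower, and the member median was -0.14. 9 of 10 guanylate-binding proteins were lower by some amount, where 40% of all genes were, and all 6 immunity-related GTPases higher, where 58.0% of all genes were (medians -0.16 and 0.25). The exception was Gbp10, at 56 against 41.3 TPM. Il12rb1 was the member farthest apart, at 15.2 against 28.6 TPM (-0.87). Ifng was at 6 against 14.5 TPM (-1.15). The T cell median was -0.33, the B cell median 0.94 and the epithelial median 2.53, and their part was not tested.

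Both antibodies against DC101 alone gave 13 members at least 2-fold higher and 1 lower, where 11.1% of all genes were higher and 14.3% lower, with a member median of 0.67 against -0.09 for all genes. 7 of the 13 were guanylate-binding proteins, among them all 5 of chromosome 5. Gbp10 was at 56 against 9.6 TPM (2.43), and Tgtp1 was the lower one, at 68.6 against 217.1 TPM (-1.65). Median-of-ratios scaling shifted the all-gene median by 0.18 in this pair. By 2-fold or more, it gave 15 members higher and 1 lower, with 14.4% of all genes higher and 11.4% lower. The T cell median was 1.23, the epithelial median -3.64 and the muscle median 2.18 in this pair, and their part was not tested.

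The balance between the GTPase families can be read from summed TPM. The 10 guanylate-binding proteins summed to 510.6 TPM with DC101, 1245 with 4H2 and 1049 with both antibodies, against 723.8 TPM with vehicle at day 21. The 6 immunity-related GTPases summed to 1240, 1303 and 1536 TPM in those antibody libraries, against 1724 TPM with vehicle. The ratio of the first sum to the second was thus 0.412 with DC101, 0.955 with 4H2 and 0.683 with both antibodies, against 0.420 with vehicle. It was 0.602 with vehicle at day 3 and 0.828 and 0.666 after 3 and 14 days of gefitinib.

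Tgtp1 and Tgtp2 share most of their sequence, and the sources used here do not say how reads that fit both were counted. In GENCODE M21, 80.0% of 100-base windows of the longest Tgtp1 transcript occur in Tgtp2 transcripts. The split between the pair is therefore uncertain, and their sum is given as well. The sum was 393.1 TPM with DC101, 235.1 with 4H2 and 280.7 with both antibodies, against 629.2 TPM with vehicle at day 21 (log2 differences -0.68, -1.42 and -1.16). Tgtp1 made up 55.2%, 22.2% and 24.4% of the sum in the antibody libraries, against 55.7% with vehicle. Gbp10 shares 32.3% of its windows with Gbp6, and Gbp6 44.2% with Gbp10, so these values carry the same limit. The other 8 guanylate-binding proteins share at most 2.29% of theirs with another member.

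**Figure D5:**
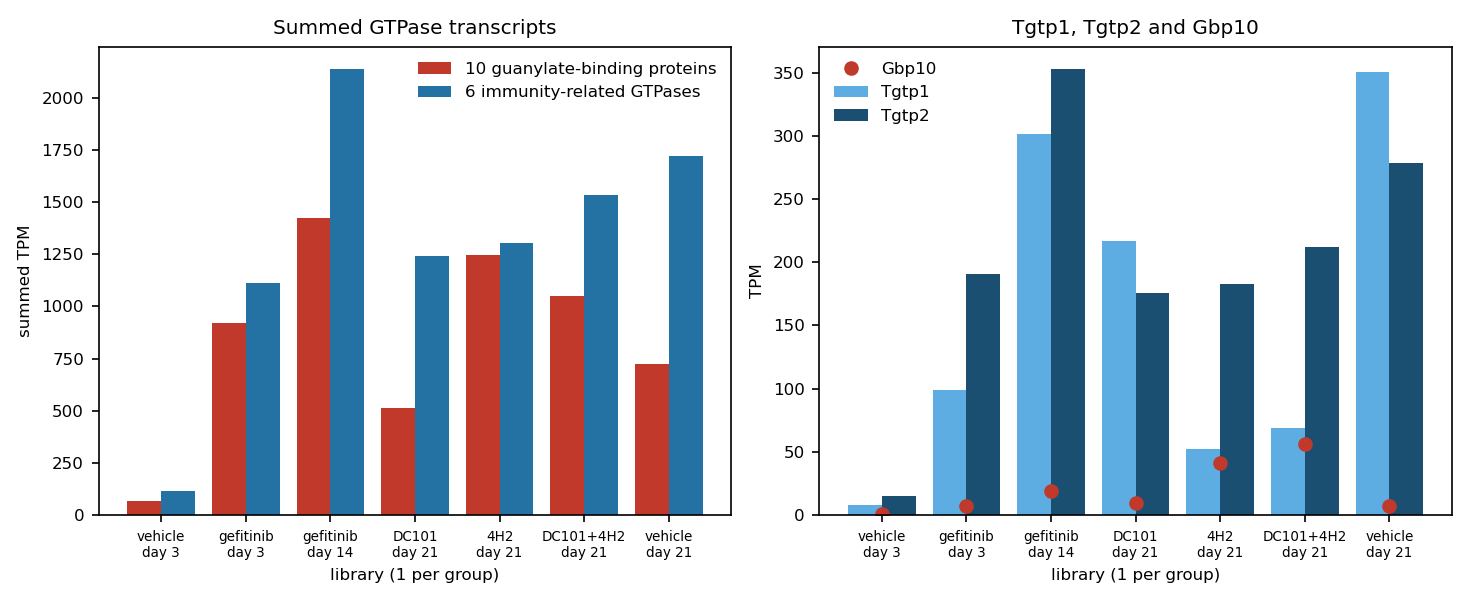
Left, summed TPM of the 10 guanylate-binding proteins and the 6 immunity-related GTPases in each library; right, TPM of Tgtp1, Tgtp2 (bars) and Gbp10 (points), 1 library per group. Tgtp1 is at 52.2 TPM with 4H2 and 68.6 TPM with both antibodies against 350.6 TPM with vehicle at day 21, where Gbp10 is at 7.1 TPM.

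Ido1, which degrades tryptophan and is a known interferon gamma target, was below the level used for comparisons. It was listed at 0 TPM with vehicle at day 3 and was at 0.4 and 0.8 TPM after 3 and 14 days of gefitinib. At day 21 it was at 0.1 TPM with DC101, 2.5 with 4H2 and 2 with both antibodies, and listed at 0 with vehicle. The values of 0.8 TPM or less are near the smallest step of 0.1 TPM, and those with 4H2 and both antibodies are low but above it.

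Of 33 other pathway genes, 31 were listed and 29 had a mean of at least 1 TPM. After 3 days of gefitinib 21 of the 29 (72.4%) were at least 2-fold above vehicle and none below, where 20.8% of all genes were above and 14.4% below. At day 14 the counts were 22 of 29 (75.9%) and none, where 22.7% of all genes were above and 12.7% below. The chemokine gene Cxcl9 was highest in both comparisons (11.8 TPM with vehicle at day 3, 299 and 511.9 TPM after 3 and 14 days), and Irgq was lowest (48.8 TPM with vehicle at day 3, 27.7 and 39.8 TPM after 3 and 14 days). Day 14 against day 3 of gefitinib gave 1 of 29 higher (3.45%, against 4.93% of all genes) and none lower (against 2.73%). Of the members, 15.2% were higher in that pair. In the day 21 vehicle library 6 of 29 were at least 2-fold below day 14 of gefitinib (20.7%, against 7.89% of all genes). None was above, against 7.62% of all genes, and Cxcl10 was at 67.5 against 323.5 TPM. Vehicle at day 21 against vehicle at day 3 gave 18 of 29 higher (62.1%, against 15.3% of all genes) and none lower (against 3.11%). DC101 against vehicle gave none of 29 in either direction, where 3.12% of all genes were higher and 1.11% lower. Both antibodies against 4H2 also gave none, where 4.94% of all genes were higher and 0.464% lower. With 4H2 against vehicle 5 were higher (17.2%, against 10.9% of all genes) and 1 lower (3.45%, against 20%), from Irgq at 19.8 against 53.3 TPM to Nos2, the inducible nitric oxide synthase gene, at 106 against 9.7 TPM. With both antibodies against vehicle 4 were higher (13.8%, near the 11.7% of all genes) and 1 lower (3.45%, against 17.0%), with Nos2 at 70.8 against 9.7 TPM. Against DC101 both antibodies gave 5 higher (17.2%, against 11.1% of all genes) and none lower (against 14.3%). Ifnb1, a type I interferon gene, was listed at 0 in all 7 libraries.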

How the data were processed

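The deposited values are TPM by the authors, 1 column per library, rounded to 1 decimal. The submitters' processing notes name the build GRCm38.p6, and the sources used here name no aligner, counter or annotation. From these, Python 3.11.15 and pandas 2.3.3 gave log2((TPM + 1) / (TPM + 1)) for the 13997 genes averaging 1 TPM or more, a scale that understates differences of low genes. With 1 library per group no test was possible. The members and lists were chosen with earlier results of these data known. Comparisons share libraries (vehicle at day 3 enters 3, vehicle at day 21 enters 5), so they are not independent. The calculation was tested on simulated data. Values in every library are given for Ifng, the most abundant member of each role, the largest difference in each comparison and members that were 2-fold against the median; other named members, and the spacing of motifs, were chosen after their values were seen. Promoter windows came from RefSeq and transcript overlap from GENCODE M21. Planned protein comparisons were not run.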

Additional observations from a re-analysis of the deposited data

Results flagged for a closer look

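An antibody's difference can be read with and without the other antibody, and its sign was opposite for 11 members with DC101 and 7 with 4H2, out of 33. Of all 13997 genes compared, 47.8% had opposite signs with DC101 and 13.0% with 4H2, so the count with DC101 is not above that of genes in general. Under median-of-ratios scaling the 4H2 count was 5 of 33, near the 14.1% of all genes. The DC101 count was then 12 of 33, where 48.2% of all genes had opposite signs. Each pair of differences rests on the same 4 libraries with no replicates. For a given gene, the difference with the other antibody minus that without it is the same number for DC101 and for 4H2. A gene named for both antibodies is therefore not an independent repeat. The difference within a pair was not tested, and no minimum size was set, so several lie close to 0.

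For DC101, all 6 immunity-related GTPases were higher when it was added to 4H2 and lower when it was given without 4H2. On the log2 scale, with 4H2 and then without it, the differences were 0.34 and -0.48 for Irgm1, 0.24 and -0.26 for Irgm2 and 0.26 and -0.36 for Igtp. They were 0.11 and -0.35 for Iigp1, 0.39 and -0.69 for Tgtp1 and 0.21 and -0.66 for Tgtp2. Casp1 (0.53 and -0.19), Lap3 (0.13 and -0.15) and Psme2 (0.0050 and -0.19) had the same order of signs. Psme1 (-0.29 and 0.040) and Ifngr1 (-0.22 and 0.0039) had the opposite one.

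For 4H2, with DC101 and then without it, the differences were 0.46 and -0.36 for Irgm1, 0.27 and -0.60 for Tgtp2 and 0.0073 and -0.46 for Iigp1. They were 0.26 and -0.13 for Ubd, 0.14 and -0.054 for Psme2, 0.041 and -0.24 for Lap3 and -0.091 and 0.14 for Ifngr1. Under median-of-ratios scaling these last 4 genes no longer had opposite signs with 4H2, nor did Psme2 with DC101, while Irgm1, Tgtp2 and Iigp1 still had them with 4H2. That scaling gave opposite signs instead to Ifngr2 and Psme1 with 4H2 and to Jak1 and Casp4 with DC101.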

How the results depend on the processing

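9 alternatives were tried: pseudocounts of 0.1 and 5, all listed members, members averaging 5 TPM or more, median-of-ratios scaling over 7340 genes, rescaling without muscle, hemoglobin, histone, ribosomal protein and the 20 most abundant genes, the mean, and lists without tandem copies or without receptor and kinase genes. No member median changed sign in any of them. With a pseudocount of 5 the median was 2.35 for 3 days and 2.87 for 14 days of gefitinib against vehicle. Without the 7 genes with tandem copies, members past 2-fold numbered 2 (day 14 against day 3 of gefitinib), 6 (day 21 vehicle against day 14), 6 (4H2 against vehicle), 4 (both antibodies against vehicle) and 8 (both antibodies against DC101) of 26. As shares these were 7.69%, 23.1%, 23.1%, 15.4% and 30.8%, against 15.2%, 30.3%, 30.3%, 24.2% and 39.4% of the 33, so the calls were more frequent among the genes left out. The shares of all genes were 4.93%, 7.89%, 10.9%, 11.7% and 11.1% in the same order. The 7 are fewer than the clustered GTPase genes described above, so clustered genes remained among the 26. Of 138 member differences of 2-fold or more, none changed sign with either pseudocount or median-of-ratios scaling; 38 of 414 values moved by over 1.5-fold, 9 with a pseudocount of 0.1 and 29 with 5. 8 fell under 2-fold with a pseudocount of 5: Jak2 (3 days of gefitinib), Gbp10 (day 14 against day 3, and day 21 vehicle against day 14), Casp1 (vehicle at day 21 against day 3), Casp4 (both antibodies against vehicle), and Cd40, Il12rb1 and Casp4 (both antibodies against DC101). Rescaling ended 2, Jak2 and Ifngr2 at day 3, and median-of-ratios scaling and a pseudocount of 0.1 ended none. No paired analysis was possible because each group holds 1 library. With no depth in TPM, counting error is unknown.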
